A study of Mus musculus with 12 samples.

Results

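The genes described here are *Filip1l*, the gene targeted by the knockdown, its paralog *Filip1*, the gene *Cmss1* that lies over *Filip1l* on the other strand, and the 6 subunits of the prefoldin complex (*Pfdn1*, *Pfdn2*, *Vbp1*, *Pfdn4*, *Pfdn5* and *Pfdn6*). They were chosen by name, and 9 of 9 were among the 15687 genes measured. RNA sequencing was performed on 12 subcutaneous allograft tumors of mTC11 cells, a mouse lung cancer cell line written mTc11 in the labels. The 6 control (CTL) tumors came from cells carrying a control shRNA (shControl, genotype labelled WT), and the 6 knockdown (KD) tumors came from cells carrying a *Filip1l* shRNA (Filip1l KD). In both groups the cells were injected with Matrigel under the skin of male C57BL6/J mice aged 8 weeks, and the tumors were frozen on day 24. The KD cells were mixed clones kept by puromycin selection and chosen by immunoblot, and the host animals carried an intact *Filip1l* gene. CTL and KD cells were separate derivatives of mTC11, so the knockdown cannot be told apart from other differences between them. Each p-value of a group comparison therefore measures spread between tumors, not between independent knockdowns. A whole tumor holds host vessels, fibroblasts, immune cells and muscle beside the injected cells, so fewer cells of a type and less RNA per cell cannot be told apart in these data.

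FILIP1L (filamin A interacting protein 1 like) is a coiled-coil protein related to FILIP1, which binds filamin A, the protein that crosslinks actin filaments. FILIP1L is known for restraining cell migration and invasion, and its promoter is methylated in several carcinomas. Prefoldin is a cytosolic co-chaperone that captures newly made actin and tubulin chains and passes them to the CCT chaperonin for folding. It is assembled from α-type subunits, encoded by *Vbp1* and *Pfdn5*, and β-type subunits, encoded by *Pfdn1*, *Pfdn2*, *Pfdn4* and *Pfdn6*. PFDN1 is the subunit that the study follows as a binding partner of FILIP1L. The study describes FILIP1L as regulating the degradation of PFDN1 protein by the proteasome. By immunohistochemistry it reported less FILIP1L and more PFDN1 protein in KD tumors. Only transcripts are compared here, and protein was not measured. The comparison asked how much *Filip1l* transcript remained in the KD tumors, and whether transcripts of its relatives and of prefoldin differed between the groups.

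The knockdown used 2 shRNA sequences against mouse *Filip1l*, called target a and target c, and the sources do not say which one the sequenced tumors carried. They are shown because their position sets which *Filip1l* transcripts contain them. Capitals mark the 29 bases of each target, and lower case marks 30 bases of coding sequence on either side, read 5′ to 3′ on the + strand of GRCm38 in GENCODE vM21.
target a, chr16:57570788-57570876: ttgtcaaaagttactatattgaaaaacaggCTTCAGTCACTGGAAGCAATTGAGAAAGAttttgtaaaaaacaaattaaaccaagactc
target c, chr16:57571452-57571540: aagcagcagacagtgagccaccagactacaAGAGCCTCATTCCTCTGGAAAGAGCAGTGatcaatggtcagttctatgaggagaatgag

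*Filip1l* (ENSMUSG00000043336) spans chr16:57353093-57573126, and target a occupies bases 57570818 to 57570846 and target c bases 57571482 to 57571510. Both sites lay in the coding part of the last exon, which is exon 5 of 5 in the longest transcript, Filip1l-203. Of the 3 annotated transcripts, 2 contained both sites, while Filip1l-201 ends upstream of that exon. The 785 exon bases found in Filip1l-201 alone made up 14.7% of the 5335 exon bases annotated for the gene in GENCODE vM21. The last exon of 3477 bases made up 65.2%. The annotation release used for the authors' counting is not given in the sources used here. The gene-level value does not separate transcripts with the target sites from the one without them, and the level of each transcript was not measured here. The best ungapped match of either target in a transcript of *Filip1* had 11 mismatches of 29 for target a and 12 for target c. In the other 7 genes the fewest mismatches ranged from 9, for target a in *Pfdn1*, to 14.

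**Figure D1:**
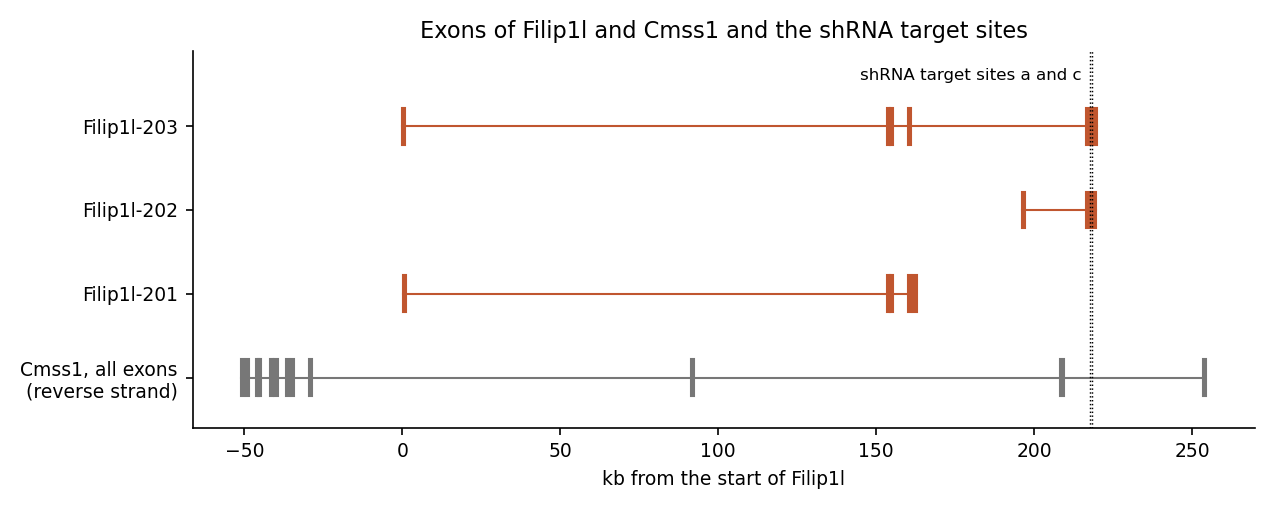
Exons (boxes, those under 1 kb drawn 1 kb wide) and introns (lines) of the 3 *Filip1l* transcripts and of *Cmss1*, plotted in kb from the start of *Filip1l*. The dotted lines mark both shRNA target sites, which fall in the last exon of Filip1l-202 and Filip1l-203 and outside every exon of Filip1l-201 and *Cmss1*.

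The 12 libraries held between 17834745 and 32419578 reads on the listed genes, with medians of 27429420 in CTL and 27334308 in KD tumors, and CTL tumor 5 was the shallowest. Across all genes, 41.9% passed an adjusted p under 0.05 between KD and CTL tumors (limma with Benjamini-Hochberg adjustment), 21.1% of them higher and 20.7% lower in KD tumors as shares of all genes tested, and 10.2% also had an absolute log2 fold change over 1. Tissue markers separated the groups as well. Of 10 tumor epithelium markers, 9 were higher in KD tumors, and their summed level was 152370 to 199830 normalized counts in CTL and 223730 to 409160 in KD tumors. Of the 10 lung epithelium markers, 4 were not among the listed genes, and 3 of the other 6 were higher in KD tumors and 0 lower, with sums of 4020 to 5974 normalized counts in CTL and 6454 to 8826 in KD tumors. Skeletal muscle, endothelium and fibroblast markers are given beside the results they touch.

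*Filip1l* transcript fell in the KD tumors, but most of it remained. In the CTL tumors, replicates 1 to 6 had 2487, 2542, 2146, 2369, 2339 and 1983 normalized counts, and in the KD tumors they had 2184, 1930, 1947, 1872, 1939 and 1670. The 6 KD tumors were all below the CTL median, and 5 of them were below the lowest CTL tumor, while KD tumor 1 lay inside the CTL range. The mean was 2311 ± 211 (SD, n = 6) in CTL and 1924 ± 165 (SD, n = 6) in KD tumors. The log2 fold change was -0.26 (standard error 0.07, 95% confidence interval -0.42 to -0.11, limma adjusted p = 0.00998), with p = 0.00649 in an exact two-sided permutation test. On the fitted scale KD tumors kept 83.3% of the CTL level, with an interval of 74.7% to 92.9%. These values rested on 1566 to 2684 reads per tumor.

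Many genes differed more than *Filip1l*. The absolute log2 fold change was larger than that of *Filip1l* in 48.7% of genes, and 2657 genes (16.9%) were lower in KD tumors at the same adjusted p with a larger decrease. The groups overlapped in 1 KD tumor for *Filip1l*, whereas 21.5% of all genes had CTL and KD ranges that did not overlap. The members counted together gave 2 of 9 genes (22.2%) past an adjusted p under 0.05, *Filip1l* lower and *Filip1* higher, beside the 41.9% of all genes. No member passed both that threshold and an absolute log2 fold change over 1.

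**Figure D2:**
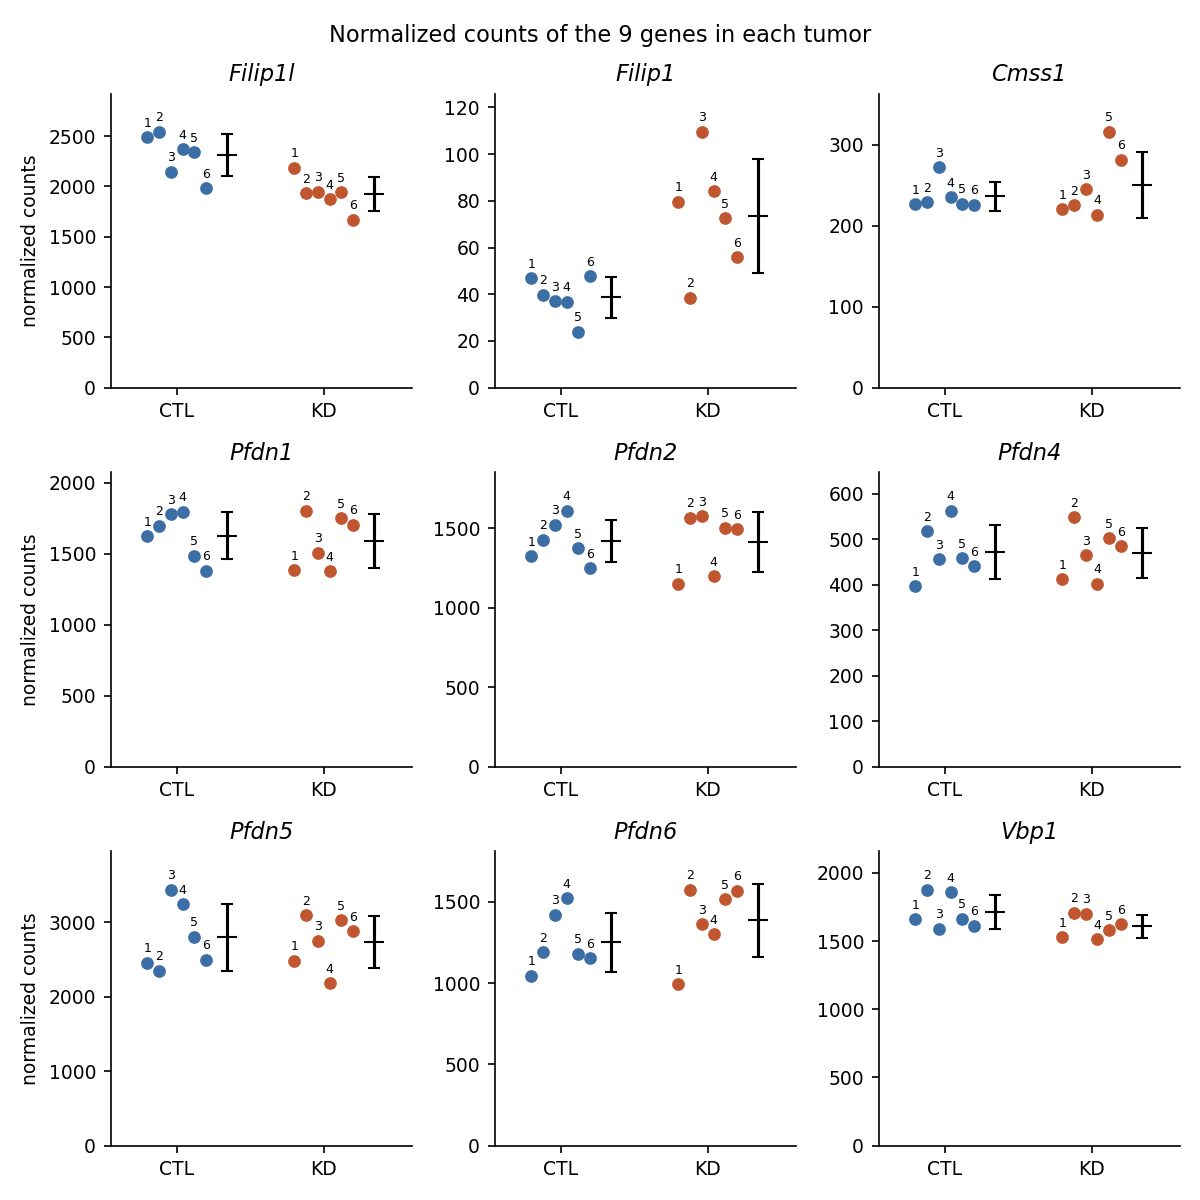
Normalized counts of each gene in the 6 CTL (blue) and 6 KD (orange) tumors, with replicate numbers, and the mean ± SD beside each group in black. *Filip1l* lay lower in 6 of 6 KD tumors than the CTL median, *Filip1* lay higher in 6 of 6, and the prefoldin subunits overlapped between groups.

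The *Filip1l* difference was refitted with each of 3 marker sums as a covariate. Of 10 fibroblast markers, 3 were lower in KD tumors and 0 higher (median log2 fold change -0.54), beside 20.7% of all genes lower, among them *Col1a1* (-0.76, limma adjusted p = 0.0108) and *Col1a2* (-0.97, limma adjusted p = 0.00626), which encode the chains of type I collagen. The fibroblast sum ranged from 172160 to 287930 normalized counts in CTL and from 81127 to 265180 in KD tumors. With the log2 fibroblast sum as a covariate, the *Filip1l* log2 fold change was -0.20 (95% confidence interval -0.41 to 0.02) and no longer passed the threshold (limma adjusted p = 0.154). Of 10 endothelium markers, 7 were higher in KD tumors and 0 lower (median 0.47), and their sum ranged from 3587 to 4404 in CTL and from 4396 to 7033 in KD tumors. With that sum as a covariate the *Filip1l* log2 fold change was -0.44 (limma adjusted p = 0.00911). With the skeletal muscle sum it was -0.28 (limma adjusted p = 0.0455). The endothelium sums of the groups met only at their edges, so that covariate and the knockdown cannot be told apart.

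*Filip1* (ENSMUSG00000034898, chr9:79815051-80012851, - strand) encodes the filamin A interacting protein after which *Filip1l* is named, and is known to be expressed in skeletal and cardiac muscle and in brain. It rose in KD tumors, from a low level. The CTL tumors had 47.0, 39.8, 36.9, 36.9, 23.9 and 47.6 normalized counts in replicates 1 to 6, and the KD tumors had 79.7, 38.5, 109.55, 84.2, 72.6 and 55.9. The KD tumors were all above the CTL median and 5 of them were above the highest CTL tumor, while KD tumor 2 lay inside the CTL range. The mean was 38.7 ± 8.66 in CTL and 73.4 ± 24.4 in KD tumors (SD, n = 6 each). That difference was 0.87 on the log2 scale (standard error 0.25, 95% confidence interval 0.34 to 1.40, limma adjusted p = 0.0116). By exact permutation of the tumor labels, p was 0.0108 (two-sided). The values rested on 16 to 105 reads per tumor, the fewest of the 9 genes.

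The level of *Filip1* was compared with transcripts of other cell types, and no correlation with them had an adjusted p under 0.05. Of 10 skeletal muscle markers, which encode fast-fiber contractile proteins and muscle enzymes, 9 were higher in KD tumors and 0 lower (median log2 fold change 1.80). *Acta1*, skeletal α-actin, averaged 1781 normalized counts in CTL and 10422 in KD tumors (limma adjusted p = 0.0119), and the exception, *Myh4*, a fast myosin heavy chain, had a log2 fold change of 1.68 (limma adjusted p = 0.0719). The summed markers reached 14096 normalized counts in the highest CTL tumor, and they were 101950 in KD tumor 3, 46717 in KD tumor 4, 28362 in KD tumor 1 and 16546 in KD tumor 5. These 4 tumors also had the highest *Filip1* values. KD tumors 2 and 6, with sums of 8799 and 5685 inside the CTL range, had 38.5 and 55.9 normalized counts of *Filip1*.

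With the log2 skeletal muscle sum as a covariate, the log2 fold change of *Filip1* was 0.29 (95% confidence interval -0.20 to 0.79, limma adjusted p = 0.361). Without KD tumors 3 and 4 it was 0.64 (limma adjusted p = 0.0726), with the endothelium sum 0.11 (limma adjusted p = 0.847) and with the fibroblast sum 1.10 (limma adjusted p = 0.0244). Within the KD tumors, *Filip1* and the skeletal muscle sum had a Pearson r of 0.875 (exact permutation p = 0.0194, adjusted 0.0875 over 18 relations) and a Spearman rho of 0.943 (exact permutation p = 0.0167, adjusted 0.10). Within the CTL tumors r was 0.758 (exact permutation p = 0.0611, adjusted 0.162) and rho 0.60 (exact permutation p = 0.242, adjusted 0.362). With the 2 tumors farthest from the median sum left out, r was 0.894 in KD and 0.208 in CTL tumors, the latter value showing that the relation in CTL tumors rested on those 2 tumors. The fibroblast sum gave r of 0.804 in CTL (exact permutation p = 0.103, adjusted 0.206, r without the 2 farthest tumors -0.25) and 0.165 in KD tumors (exact permutation p = 0.789, adjusted 0.835, without them 0.571). Summed smooth muscle and pericyte markers gave 0.582 in CTL (exact permutation p = 0.20, adjusted 0.317, without them 0.651) and 0.803 in KD tumors (exact permutation p = 0.0306, adjusted 0.11, without them 0.641). That list was mixed, with 2 of 10 markers higher and 3 lower in KD tumors, beside 41.9% of all genes in either direction. Its marker *Des* averaged 723 normalized counts in CTL and 3682 in KD tumors. With the endothelium sum, *Filip1* had an r of 0.978 in CTL tumors (exact permutation p = 0.00833, adjusted 0.0875, rho 0.943, exact permutation p = 0.0167, adjusted 0.10, r without the 2 farthest tumors 0.977) and 0.582 in KD tumors (exact permutation p = 0.211, adjusted 0.317, rho 0.657, exact permutation p = 0.175, adjusted 0.315, r without the 2 farthest tumors 0.909).

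*Filip1l* was also compared with marker sums inside each group. Its r with the endothelium sum was 0.949 in KD tumors (exact permutation p = 0.0194, adjusted 0.0875, rho 0.943, exact permutation p = 0.0167, adjusted 0.10) and -0.13 in CTL tumors (exact permutation p = 0.850, adjusted 0.850, rho 0.14, exact permutation p = 0.803, adjusted 0.803). Without the 2 tumors farthest from the median sum, the KD value was 0.356, so it rested on those 2 tumors, and the CTL value was -0.49. With the fibroblast sum r was 0.701 in KD tumors (exact permutation p = 0.0722, adjusted 0.162, rho 0.886, exact permutation p = 0.0333, adjusted 0.15, r without the 2 farthest tumors 0.559) and -0.38 in CTL tumors (exact permutation p = 0.478, adjusted 0.537, rho -0.43, exact permutation p = 0.419, adjusted 0.539, r without the 2 farthest tumors -0.71). The tumor epithelium sum gave -0.73 in KD (exact permutation p = 0.144, adjusted 0.26, without the 2 farthest tumors -0.45) and -0.40 in CTL tumors (exact permutation p = 0.447, adjusted 0.537, without them 0.96). Smooth muscle and pericyte markers gave 0.40 in KD (exact permutation p = 0.397, adjusted 0.521) and -0.43 in CTL tumors (exact permutation p = 0.406, adjusted 0.521). None of the 18 relations tested between *Filip1*, *Filip1l* or *Pfdn6* and marker sums had an adjusted p under 0.05. Of these, 4 (*Filip1* with endothelium and *Pfdn6* with tumor epithelium) were added after their values were seen. The r of every member with every marker sum was also computed without a test, so the adjusted p cover only part of the relations. Among the untested ones, *Filip1l* with macrophage markers had 0.862 in KD and -0.653 in CTL tumors. *Pfdn6* with lung epithelium markers had 0.965 in KD and -0.038 in CTL tumors.

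The genes most like *Filip1* over the 12 tumors, after the group means were removed, included *Eef1a2* (r = 0.963), the muscle and neuronal form of elongation factor 1α, *Cap2* (0.922), an actin-binding protein, *Zmym1* (0.897) and *Sh3bgr* (0.894). These 4 fall outside the rule that set the named genes and were looked up after the values of *Filip1* were seen. All tumors of a group share its handling, and genes of one cell type move together over tumors, so these values describe likeness only.

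**Figure D3:**
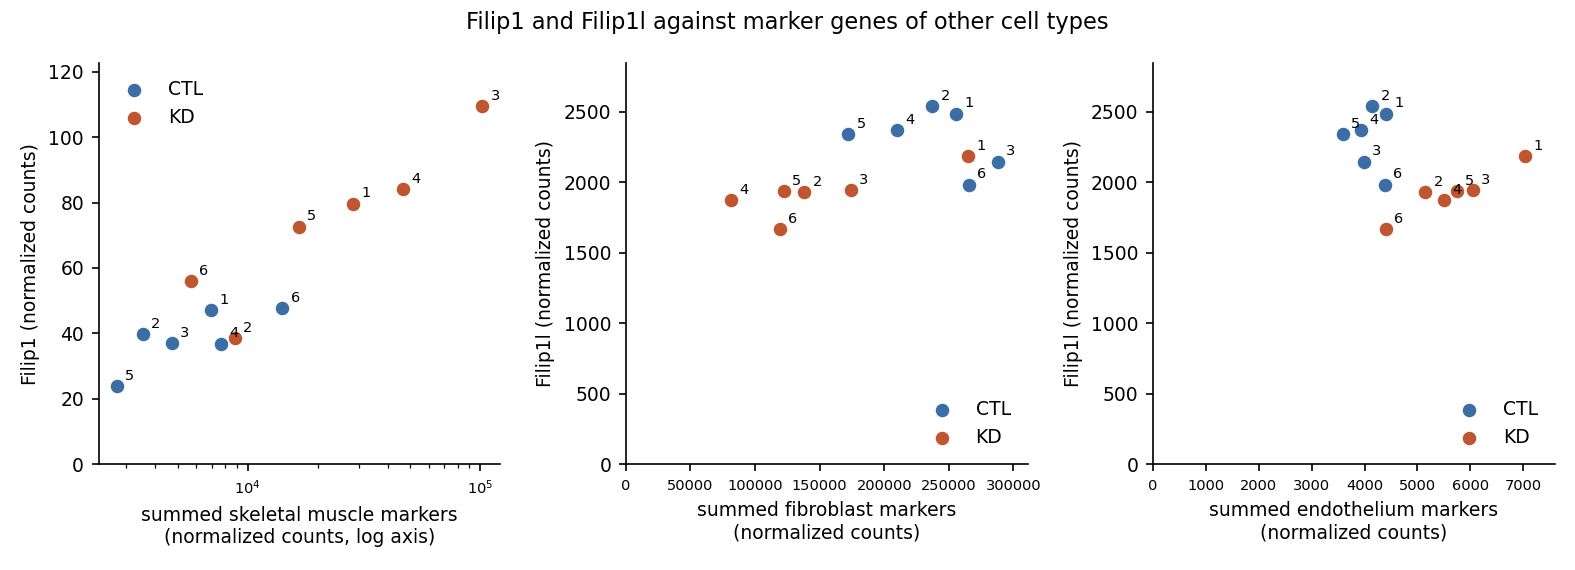
*Filip1* against the summed skeletal muscle markers (left, log x axis), and *Filip1l* against the summed fibroblast (middle) and endothelium (right) markers, in normalized counts, with 1 point per tumor and replicate numbers. *Filip1* was highest in KD tumor 3, which had the highest skeletal muscle sum, the KD tumors apart from KD tumor 1 lay to the left of most CTL tumors for fibroblast markers, and those apart from KD tumor 6 lay to the right of every CTL tumor for endothelium markers.

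*Flna*, which encodes the binding partner filamin A, had 39775 ± 5743 normalized counts in CTL and 32244 ± 4438 in KD tumors (SD, n = 6 each) and fell by 0.30 on the log2 scale (limma adjusted p = 0.0365). *Flnc* (filamin C), the muscle form, averaged 838 ± 176 in CTL and 1167 ± 887 in KD tumors, with no detectable difference (0.16, limma adjusted p = 0.789). The other genes related to *Filip1l* through a CortBP2 domain were *Cttnbp2* and *Cttnbp2nl*, cortactin-binding proteins. Their log2 fold changes were 0.23 (limma adjusted p = 0.453) and -0.09 (limma adjusted p = 0.549), so of the 4 relatives only the members *Filip1l* and *Filip1* passed the test, beside 41.9% of all genes.

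*Cmss1* (ENSMUSG00000022748, chr16:57302000-57606864, - strand), the homolog of a yeast factor of small ribosomal subunit assembly, spans the whole of *Filip1l* on the other strand. Of its exons, 2 lie inside the *Filip1l* span, and the genes share 0 exon bases. *Cmss1* had 226, 228 and 272 normalized counts as lowest, median and highest value in CTL tumors and 213, 235 and 316 in KD tumors. The groups overlapped, with 3 KD tumors below and 2 above the CTL range. The log2 fold change was 0.07 (95% confidence interval -0.16 to 0.30, limma adjusted p = 0.632, exact permutation p = 0.498), which leaves room for 89.5% to 123% of the CTL level.

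Around *Filip1l*, 11 other listed genes lay within 1 Mb, *Cmss1* included, of which 2 were higher and 2 lower in KD tumors (median log2 fold change -0.03), beside 41.9% of all genes that passed in either direction. They ran from -1.02 (*Tmem45a*, limma adjusted p = 8.09e-05) to 2.84 (*Adgrg7*, limma adjusted p = 3.33e-08). The nearest on the side before *Filip1l* were *Tbc1d23*, at 122 kb (0.19, limma adjusted p = 0.0810), and *Nit2*, at 186 kb (-0.03, limma adjusted p = 0.834). On the other side, *Col8a1*, a collagen gene at 51.1 kb, had a log2 fold change of -0.44 (limma adjusted p = 0.163), and *Dcbld2*, at 835 kb, fell by 0.48 on the log2 scale (limma adjusted p = 0.00837). Of these nearest genes, neither before *Filip1l* passed the test, and 1 of the 2 after it did. *Tmem45a* and *Adgrg7* lie before *Filip1l* as well, at 467 and 557 kb. The median difference of the 405 chromosome 16 genes that averaged 50 normalized counts or more was 0.01. Taken the same way, the medians for the chromosomes of the other members ran from -0.05, for chromosome 15, to 0.04, for chromosome 17.

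No prefoldin subunit passed the test between KD and CTL tumors. The 6 subunits had a median log2 fold change of -0.02 and a median absolute value of 0.03, against medians of 0.01 and 0.25 over all genes. The count was 0 of 6 at an adjusted p under 0.05 and 0 of 6 at an unadjusted p under 0.05 in limma. Among the 95% confidence intervals the lowest bound was -0.26 and the highest 0.40 on the log2 scale, so levels below 83.5% or above 132% of CTL lay outside the intervals of every subunit. The coefficient of variation within a group ran from 5.20% to 16.1%.

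*Pfdn1* (ENSMUSG00000024346, chromosome 18) had 1382.5, 1661 and 1798 normalized counts as lowest, median and highest value in CTL tumors and 1378, 1608 and 1803 in KD tumors. The ranges almost coincided, with KD tumors 1 and 4 at the low end and KD tumor 2 at the top. The log2 fold change was -0.04 (standard error 0.09, 95% confidence interval -0.23 to 0.15, limma adjusted p = 0.765, exact permutation p = 0.712), which corresponds to 85.5% to 111% of the CTL level. When each tumor's trends with GC content and exon length were removed, the value was -0.19 (limma adjusted p = 0.0285), and *Pfdn5* also passed the test there (-0.18, limma adjusted p = 0.0396), which gave 4 of 9 members. The sign was positive without KD tumor 1 or KD tumor 4, and with the skeletal muscle (0.10) or endothelium (0.15) sum as a covariate, with no call in those fits.

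*Pfdn2*, a β-type subunit that also serves in the URI complex, had 1248, 1401 and 1609 normalized counts as lowest, median and highest value in CTL tumors and 1149.6, 1498 and 1575 in KD tumors. Its log2 fold change was -0.01 (95% confidence interval -0.21 to 0.19, limma adjusted p = 0.946). *Pfdn4*, the least abundant subunit, had 397, 457 and 562.2 in CTL and 402, 475 and 548 in KD tumors, a log2 fold change of -0.01 (95% confidence interval -0.22 to 0.20, limma adjusted p = 0.954). For *Pfdn4* all 6 KD tumors lay inside the CTL range, and for *Pfdn2* 4 did, with KD tumors 1 and 4 below it.

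*Pfdn6*, the other β-type subunit shared with the URI complex, had 1044, 1185 and 1523 normalized counts as lowest, median and highest value in CTL tumors and 993, 1440 and 1573 in KD tumors. It was the one subunit with a higher fitted level in KD tumors, by 0.14 on the log2 scale (95% confidence interval -0.11 to 0.40, limma adjusted p = 0.370), and 5 of 6 KD tumors were above the CTL median. Without KD tumor 1, its lowest, the difference was 0.23 (limma adjusted p = 0.0621), and that tumor also had the lowest tumor epithelium sum of the KD group, 223730 normalized counts. *Pfdn6* and that sum had an r of 0.989 in KD tumors (exact permutation p = 0.0167, adjusted 0.0875 over the 18 relations given above, rho 0.771, exact permutation p = 0.103, adjusted 0.306, r without the 2 farthest tumors 0.916) and 0.756 in CTL tumors (exact permutation p = 0.0667, adjusted 0.162, rho 0.714, exact permutation p = 0.136, adjusted 0.306, r without the 2 farthest tumors 0.583). The relation was not particular to *Pfdn6*. In KD tumors r with that sum was 0.867 for *Pfdn1*, 0.860 for *Pfdn2*, 0.804 for *Pfdn4*, 0.713 for *Pfdn5* and 0.583 for *Vbp1*. In CTL tumors the same subunits had 0.104, 0.529, 0.489, 0.797 and -0.054, and these values were not tested. With the endothelium sum as a covariate the log2 fold change of *Pfdn6* was 0.55 (limma adjusted p = 0.0153), and with the fibroblast sum it was -0.03 (limma adjusted p = 0.911).

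Of the α-type subunits, *Pfdn5*, also called MM-1 for its binding to MYC, had 2350.3, 2651 and 3434 normalized counts as lowest, median and highest value in CTL tumors and 2182, 2814 and 3095 in KD tumors (log2 fold change -0.03, 95% confidence interval -0.26 to 0.21, limma adjusted p = 0.868). *Vbp1*, which encodes prefoldin subunit 3 and was named for binding the von Hippel-Lindau protein, had 1590.4, 1662 and 1876 in CTL and 1513, 1602 and 1708 in KD tumors. Its log2 fold change was -0.09 (95% confidence interval -0.21 to 0.04, limma adjusted p = 0.258, exact permutation p = 0.141), and 3 KD tumors were below the CTL range. *Vbp1* had the narrowest interval of the 9 genes and *Filip1* the widest.

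**Figure D4:**
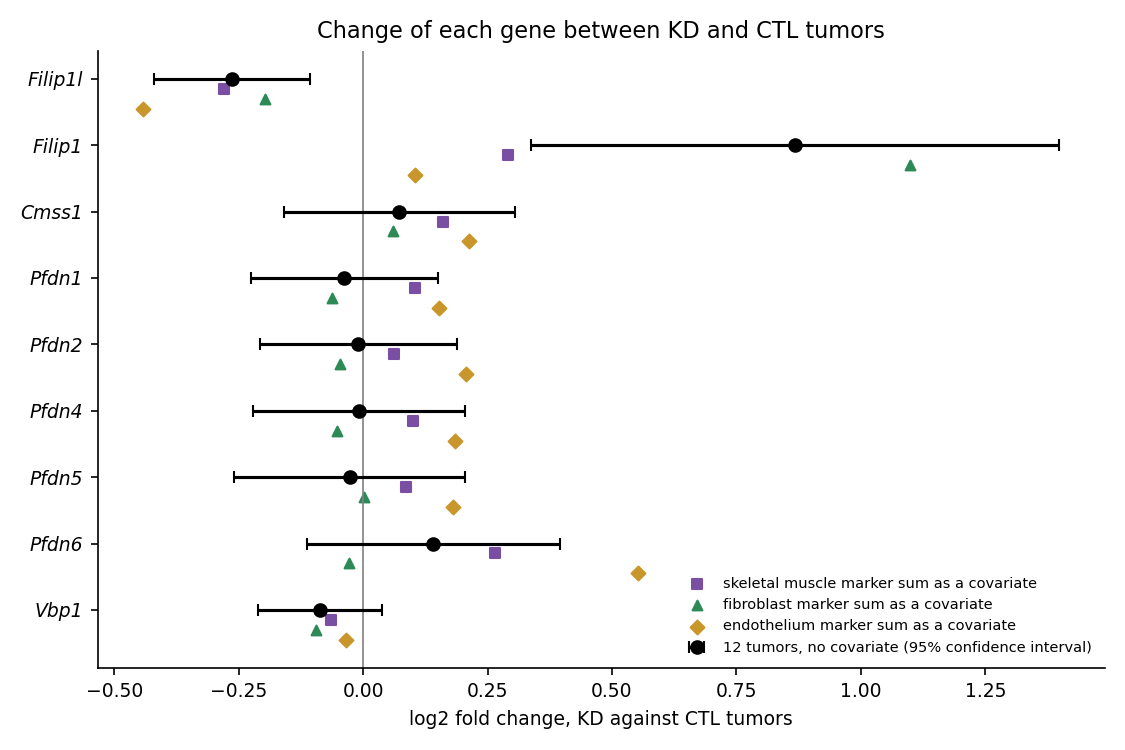
Log2 fold change of each gene between KD and CTL tumors, with the 95% confidence interval of the fit without a covariate (black), and the estimates with the summed skeletal muscle (squares), fibroblast (triangles) or endothelium (diamonds) markers as a covariate. The black intervals of *Filip1l* and *Filip1* lie on one side of 0 and those of the other 7 genes cross it, and the estimate for *Filip1* drops from 0.87 to 0.29 with the skeletal muscle and to 0.11 with the endothelium covariate.

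Normalized counts are not corrected for gene length, so levels were compared between genes per kb of annotated exon. In CTL tumors the order of mean levels per kb was *Pfdn5* (2007), *Pfdn1* (1468), *Pfdn6* (1049), *Vbp1* (802), *Pfdn2* (732), *Filip1l* (433), *Pfdn4* (187), *Cmss1* (118) and *Filip1* (7.59). The ranges over CTL tumors overlapped between *Pfdn1* and *Pfdn6*, between *Pfdn6* and *Vbp1* and between *Vbp1* and *Pfdn2*, and did not overlap between the other neighbors in that order. Transcripts of the subunits were thus unequal, with *Pfdn5* making up 32.0% and *Pfdn4* 3.01% of the summed prefoldin level per kb in CTL tumors.

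The summed level of the 6 subunits was 6246 ± 657 normalized counts per kb in CTL and 6228 ± 710 in KD tumors (SD, n = 6 each). The share of *Pfdn6* in that sum was 16.75% ± 0.88 in CTL and 18.6% ± 1.64 in KD tumors (exact permutation p = 0.0346, adjusted 0.208 over 6 shares), and the other 5 shares had adjusted p of 0.853 or higher by the same exact test. Some exon bases are shared with genes annotated on top of a subunit, and whether the counting used strand is not given in the sources used here. These bases were 27.6% of the exon length of *Pfdn2* (with *Klhdc9*), 25.4% of *Pfdn4* (with Gm16796), 11.8% of *Pfdn5* (with *Myg1*, on the same strand) and 6.54% of *Pfdn6* (with CR974462.1), so the levels of these subunits carry that uncertainty.

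**Figure D5:**
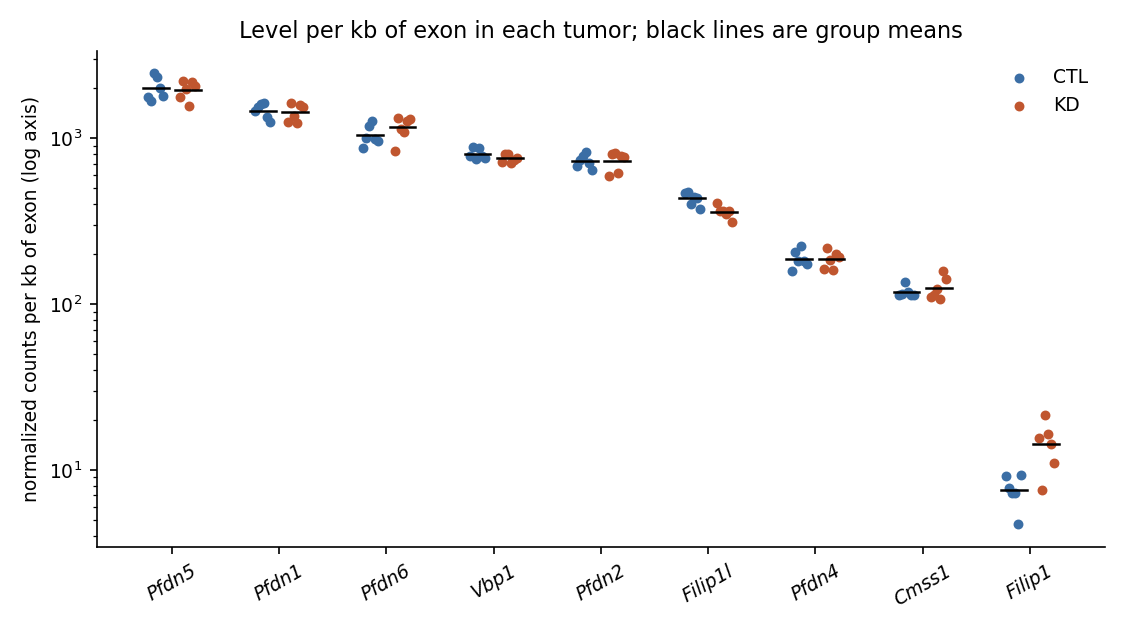
Normalized counts per kb of annotated exon of the 9 genes, with 1 point per CTL (blue) or KD (orange) tumor and the group mean as a black line, on a log axis. *Pfdn5* lies at the top at 2007 in CTL tumors, *Filip1l* lies between *Pfdn2* and *Pfdn4*, and *Filip1* lies at the bottom at 7.59.

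The subunits varied together from tumor to tumor. Over the 12 tumors, with group means removed, the 15 pairs of subunits had a Pearson r from 0.185 (*Vbp1* with *Pfdn5*) to 0.844 (*Pfdn2* with *Pfdn6*), with a median of 0.746. All pairs share the same 12 libraries. Pairs of other genes were not examined for comparison, so whether such likeness is particular to prefoldin was not tested. The 5 genes most like *Pfdn1* among the 12879 genes that averaged 50 normalized counts or more were *Cox7a2* (r = 0.953), a cytochrome c oxidase subunit, *Pdcl3* (0.944), a phosducin-like protein that works with CCT, *Tbca* (0.944), tubulin folding cofactor A, *Atox1* (0.938), a copper chaperone, and *Sf3b6* (0.932), a splicing factor. The 5 most like *Filip1l* were *Msn* (0.904), which encodes moesin, a linker of actin to the membrane, *Ptgs2* (0.901), the inducible cyclooxygenase, *Cxcl3* (0.898), a neutrophil chemokine, *Zswim6* (0.889) and *Zfp52* (0.886).

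No relation between *Filip1l* and another member passed the test within a group. Its Pearson and Spearman correlations with the other 8 genes were computed in the 6 CTL and the 6 KD tumors separately, 16 relations in all, and 0 had an unadjusted exact permutation p under 0.05 for Pearson's r (lowest adjusted p 0.822). With *Pfdn1*, r was 0.48 in CTL tumors (exact permutation p = 0.339, rho 0.37, exact permutation p = 0.497) and -0.45 in KD tumors (exact permutation p = 0.439, rho -0.14, exact permutation p = 0.803). Without the 2 tumors farthest from the median *Filip1l* value, r was 0.29 and 0.66, so the sign in KD tumors rested on those 2 tumors.

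The CCT chaperonin, which receives actin and tubulin from prefoldin, had 3 of 8 subunits lower and 0 higher in KD tumors (median log2 fold change -0.08). On the log2 scale *Cct6a* fell by 0.18 (limma adjusted p = 0.00752), *Cct5* by 0.15 (limma adjusted p = 0.0124) and *Cct4* by 0.13 (limma adjusted p = 0.0384). With chromosome medians removed, *Cct5* no longer passed (-0.09, limma adjusted p = 0.0951) and *Tcp1*, the α subunit, did (-0.12, limma adjusted p = 0.0243). In the URI/R2TP complex, a prefoldin-like assembly that shares *Pfdn2* and *Pfdn6*, 2 of the 9 other subunits passed the test. *Uri1*, its scaffold, fell by 0.19 on the log2 scale (limma adjusted p = 0.0162), and *Uxt*, an α-type prefoldin-like subunit, rose by 0.37 (limma adjusted p = 0.0316). With chromosome medians removed both still passed, and *Polr2e*, of the same list, did as well (-0.18, limma adjusted p = 0.0483).

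Among the tubulin folding cofactors, which act after CCT to join α- and β-tubulin, 2 of 6 were higher and 1 lower. On the log2 scale *Tbce* and *Tbcc* rose by 0.24 each (limma adjusted p = 0.0162 and 0.0306), and *Arl2*, the small GTPase that works with them, fell by 0.80, with 1232 ± 176 normalized counts in CTL and 703 ± 43.3 in KD tumors (SD, n = 6 each; limma adjusted p = 6.92e-06). *Arl2* lies on chromosome 19, whose genes averaging 50 normalized counts or more had a median difference of -0.36. With chromosome medians removed the log2 fold change of *Arl2* was -0.44 (limma adjusted p = 0.000857). *Tbcb* passed only in that fit (0.24, limma adjusted p = 0.0394, against 0.0523 without the removal). Genes for actin and tubulin themselves went both ways, with 4 of 13 higher and 5 lower and a median of -0.02. On the same scale *Actg1*, cytoplasmic γ-actin, rose by 0.41 (limma adjusted p = 0.000405), *Tubb3*, the neuronal β-tubulin, fell by 0.85 (limma adjusted p = 0.000125) and *Tuba1a*, an α-tubulin, fell by 0.76 (limma adjusted p = 3.39e-05). *Tubb3* lies on chromosome 8, whose median difference, taken as for chromosome 19, was -0.20. With chromosome medians removed the log2 fold change of *Tubb3* was -0.65 (limma adjusted p = 0.00147). None of these lists was tested against the 41.9% of all genes that passed.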

How the data were processed

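RNA of 12 tumors (6 CTL, 6 KD) was sequenced by the authors from oligo(dT)-selected, paired-end libraries. Per the labels and the submitters' processing notes, reads were trimmed with Trimmomatic 0.36, aligned to mm10 with STAR 2.5.2b and counted with featureCounts (Subread 1.5.2). The deposited values are a normalized signal, counts that the authors divided by DESeq2 size factors. Dividing by each tumor's smallest step gave whole reads for every value (tolerance 0.001 read). In CTL tumors 1 and 4 and KD tumor 1 that step was so close to 1 that whole values are a weaker check, and their read numbers carry that doubt. Positions came from GENCODE vM21 (GRCm38), in which 99.8% of identifiers were found.

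Values were compared as log2(normalized count + 1) with limma 3.58.1 (R 4.3.3, variance trend, filter at a mean of 5, which removed 0 genes, Benjamini-Hochberg adjustment over 15687 genes), with fold changes on that scale. Permutation tests were exact and two-sided. Group comparisons ran over the 924 ways to label the tumors (smallest p 0.00216), and correlations ran over all pairings of the tumors within a group. Replicates are labelled biological. The members, lists and tests were chosen with earlier results of these data known. Named genes are the members, genes of a list a paragraph is about, the nearest 2 listed neighbors of *Filip1l* on each side, and the 5 genes most correlated with *Filip1l* and with *Pfdn1*. Exceptions are stated, and a few results for single genes are not reported here.

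Alternatives were pseudocounts of 0.5 and 8, no filter or one at 20, 2 rescalings, no trend, a replicate block, chromosome medians removed, GC content and length trends removed, edgeR 4.0.16 and DESeq2 1.42.0 on recovered reads, and each tumor left out. Marker sums as covariates, KD tumors 3 and 4 left out, and chromosome medians removed for the genes of the other lists, were added after seeing the data. Intervals are 95%. No 2 tumors of a group were alike within counting noise (lowest chi-square per degree of freedom 9.42 over 30 pairs). Scripts were tested on simulated data. Figures used matplotlib 3.10.9 in Python 3.11.15.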

Additional observations from a re-analysis of the deposited data

Results flagged for a closer look

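In the 6 CTL tumors, *Cmss1* was at 272.2 normalized counts in replicate 3, far from the others: its gap to the next tumor was 0.795 of the group's range, above Dixon's 95% critical value for 6 samples. The 9 genes gave 18 groups to examine, and chance alone is expected to mark about 1 in 20.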

How the results depend on the processing

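Under 12 other settings with all tumors kept, the *Filip1l* log2 fold change ran from -0.31 to -0.22 (adjusted p 0.00292 to 0.0186) and that of *Filip1* from 0.77 to 0.91 (adjusted p 0.00179 to 0.0252), edgeR and DESeq2 on recovered reads included. With 1 tumor left out at a time they ran from -0.31 to -0.22 and from 0.74 to 1.04, and the number of members past the threshold was 2 each time. The replicate numbers do not pair the tumors (correlations of same-numbered tumors -0.280 to 0.0796, 0 of 6 closest to their own number). A replicate block left 5905 genes past the threshold, against 6566, and 2 members, with an adjusted p of 0.00519 for *Filip1l* and 0.0252 for *Filip1*.

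Removing GC content and length trends brought 4 members past the threshold, with *Pfdn1* at -0.19 (adjusted p = 0.0285) and *Pfdn5* at -0.18, and turned the sign of *Cmss1* (-0.040) and *Pfdn6* (-0.020). Removing chromosome medians turned *Pfdn5* (0.026) and, among the other lists, *Tuba1b* (0.032). With 1 tumor left out, signs turned for *Pfdn1* (range -0.084 to 0.0015), *Pfdn2* (-0.045 to 0.048), *Pfdn4* (-0.057 to 0.043) and *Pfdn5* (-0.074 to 0.036), while *Pfdn6* ran from 0.091 to 0.23. Of the fits added after seeing the data, the fibroblast covariate left 1 member past the threshold, *Filip1* (1.10), and *Filip1l* (-0.20) no longer passed. It turned *Pfdn5* (0.0013) and *Pfdn6* (-0.028). The skeletal muscle covariate left 1 member, *Filip1l* (-0.28), and *Filip1* (0.29) no longer passed. It turned *Pfdn1* (0.10), *Pfdn2* (0.063), *Pfdn4* (0.10) and *Pfdn5* (0.086). The endothelium covariate put *Filip1* at 0.11 and *Pfdn6* at 0.55 and turned *Pfdn1* (0.15), *Pfdn2* (0.21), *Pfdn4* (0.19) and *Pfdn5* (0.18). Leaving out KD tumors 3 and 4 also left 1 member, *Filip1l* (-0.26), and *Filip1* (0.64) no longer passed. That fit turned *Pfdn1* (0.0275), *Pfdn2* (0.0052), *Pfdn4* (0.0446) and *Pfdn5* (0.0473). None of these turned values passed the threshold, and the causes were not tested. The depth of *Filip1*, 16 to 105 reads per tumor, limits its precision.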
